A study of Mus musculus with 117 samples.

Results

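Astrocytes after spinal cord injury (SCI) were set against astrocytes of the newborn cord to ask how far the injured state resembles the immature state. The comparison rested on 9 of the 117 libraries of the series, namely every library that carries either of a pair of group labels. They were 5 RiboTag libraries titled 73.12 GFAP 14d SCI and the 4 uninjured RiboTag libraries of postnatal day 0 (P0) of the same mGfap line. The study profiled polysome-bound RNA of spinal cord astrocytes by RNA-seq through postnatal ages and after a crush injury of the thoracic cord. The injured mice were 5 female young adults of genotype 73.12 GFAP Cre -RiboTag taken 14 days after SCI. The newborn mice were 4 males of the same genotype with no injury. Uninjured P63 mice of the same genotype (3 male and 2 female) served as the adult reference, and 19 libraries of P3, P7, P14, P21 and P35 defined which genes change with age. Sex, age and injury differed together between the 5 injured and the 4 newborn libraries and cannot be told apart within them.

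All these mice carried Cre under the mouse Gfap promoter (mGfap-Cre-73.12) together with the RiboTag allele, a haemagglutinin-tagged ribosomal protein that Cre switches on and that lets ribosomes and their mRNA be pulled down from whole tissue. Recombination is permanent, so a cell is tagged once the Gfap promoter has been active in it, whatever the cell later becomes. Gfap is therefore also the gene whose promoter defines the tagged cells. After SCI the study detected the tag in this line in astrocytes derived from oligodendrocyte progenitors. The injured tissue was a block around the lesion, with equivalent cord regions from the uninjured mice per the study's methods. In pulled-down RNA from bulk tissue, fewer cells of a type and less RNA per cell cannot be told apart. Nothing in the labels ties libraries of different groups to each other, and each library was a separate sample of its group.

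Newborn astrocytes still divide, carry progenitor proteins such as nestin and brain lipid-binding protein, and have not yet built the glutamate and potassium uptake machinery of the adult cell. After injury, adult astrocytes near the lesion re-enter the cell cycle, raise intermediate filaments such as GFAP and vimentin, and secrete immune and protease-inhibiting proteins. Because intermediate filaments, division and some progenitor genes occur in both states, reactive astrocytes are often described as partly immature.

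Total counts were 99987229 to 117082323 per injured library and 69219872 to 112694203 per P0 library, and 18557 to 19398 and 15354 to 16900 genes were detected. Levels are given as CPM, read counts per library size after TMM scaling. Differences are log2 fold changes (log2 FC) with standard errors (SE) from edgeR's quasi-likelihood test, and a differentially expressed gene (DEG) had a Benjamini-Hochberg FDR under 0.01. Of 18380 genes tested, 5061 (27.5%) were higher and 4337 (23.6%) lower in injured astrocytes than at P0. At least 4-fold differences were called for 10.1% of the genes higher and 4.84% (889 genes) lower. The median log2 FC of all genes was 0.08. Scaling by library totals moved that median by -0.29 and moved the share of higher genes among all calls from 53.9% to 39.4%. With sex as a term, estimated from the other ages, 4200 genes were higher and 3714 lower. With the injured and P0 libraries fitted alone, 3129 were higher and 2916 lower. The main fit estimated each gene's spread over all ages, and the P0 libraries differed more among themselves than the injured ones. Standard errors and FDR against P0 in the main fit may therefore be too small. Against P63, 3351 genes (18.2%) were higher and 2916 (15.9%) lower. Both contrasts share the 5 injured libraries, so their values are given side by side and not counted as separate evidence.

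Promoter stretches of genes from the main groups are printed because these lists were called almost wholly in 1 direction. They are RefSeq sequences on GRCm38.p6, 5′ to 3′ on the strand of the gene, with capitals marking every match to the motif searched for that group on either strand. Kif11, a mitotic kinesin, lies on the plus strand and its stretch is chr19:37376313-37376418. Mki67, which encodes the proliferation antigen Ki-67, lies on the minus strand at chr7:135716440-135716545. Mcm5, a subunit of the replicative helicase, is on the plus strand at chr8:75109310-75109417. Ifit3, an interferon-induced antiviral protein, is on the plus strand at chr19:34583323-34583432. The motifs were TTTGAA for Kif11 and Mki67, TTTGGCGC for Mcm5 and, for Ifit3, the interferon-stimulated response element core of a GAAA pair spaced by any 2 bases.
Kif11: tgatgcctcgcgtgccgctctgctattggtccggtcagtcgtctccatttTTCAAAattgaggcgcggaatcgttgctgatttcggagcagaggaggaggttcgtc
Mki67: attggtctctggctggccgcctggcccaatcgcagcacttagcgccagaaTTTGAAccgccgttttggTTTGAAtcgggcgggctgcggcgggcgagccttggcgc
Mcm5: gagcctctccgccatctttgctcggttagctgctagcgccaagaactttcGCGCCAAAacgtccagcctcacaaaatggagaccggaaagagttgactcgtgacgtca
Ifit3: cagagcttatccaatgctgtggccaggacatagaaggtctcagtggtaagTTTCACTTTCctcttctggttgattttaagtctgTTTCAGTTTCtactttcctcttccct

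The promoter table gives 250 bases before to 50 bases after the gene start for 27025 genes, and both strands were searched. TTTGAA, the letters of the core cell cycle homology region, was found in 16 of the 21 mitosis genes with a promoter (76.2%) and in 20.2% of all promoters. TTTGGCGC and TTTCCCGC, forms of the E2F motif, were found in 5 (26.3%) and 3 (15.8%) of the 19 replication genes, against 0.585% and 1.24% of all promoters. The interferon-stimulated response element core was found in 10 of 19 interferon-stimulated genes (52.6%) and in 3.99% of all promoters. A match describes the letters of these windows and is not evidence of binding.

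Placed on an axis of postnatal maturation, the injured libraries lay between the newborn and the adult, at a position that depended on the ages that built the axis. The axis was the leading principal component of the 19 libraries from P3 to P35, none of them injured, P0 or P63, and was rescaled so that the mean of P0 was 0 and the mean of P63 was 100. It held 32.1% of the variance of those 19 libraries. The P3 libraries lay at -13.1 to 6.36, so the axis did not separate P3 from P0 and is not an even scale of age. The injured libraries lay at 80.0, 70.7, 76.4, 71.4 and 80.2 (mean 75.7 ± 4.56, SD, n = 5), and the P0 libraries at 4.15, 2.98, -6.31 and -0.823. All injured libraries lay above all newborn libraries, and none reached the P63 range of 97.9 to 102.5. The range of the injured libraries overlapped that of P14 (62.97 to 72.0) and that of P21 (79.7 to 86.5). The mean position was 54.2 (37.6 to 66.5) with P3 left out, so that at least 1 injured library was then nearer to the newborn mean, and 83.0 (73.3 to 93.6) with P35 left out.

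**Figure D1:**
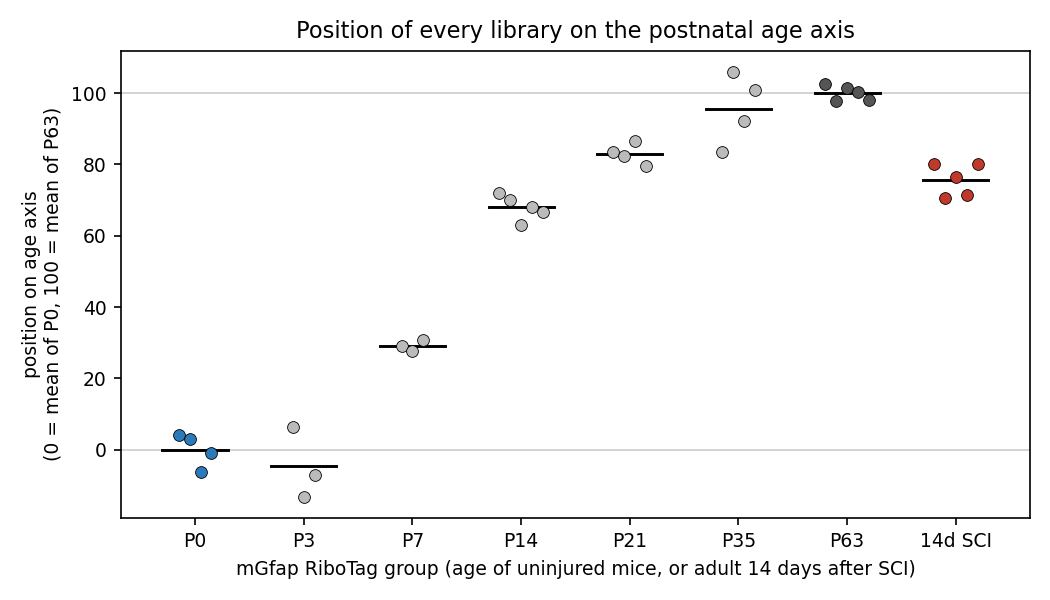
Position of each mGfap RiboTag library (point, 1 library; black line, group mean) on the postnatal age axis, in percent of the way from the mean of P0 to the mean of P63, by group. The 5 injured libraries sit between 70.7 and 80.2, above every P0, P3 and P7 library and below every P63 library.

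Distance over all tested genes also set the newborn apart. The root mean square difference of log2 CPM from the P0 mean was 1.77 to 2.09 in the injured libraries, against 1.17 to 1.43 from the P14 mean, 1.07 to 1.49 from the P21 mean and 1.22 to 1.54 from the P63 mean. P0 was the farthest of the 7 ages for all 5 injured libraries. P14 was nearest for 2 of them (libraries 1 and 4) and P21 for the other 3. The P0 libraries also differed more among themselves, by 1.25 to 1.69 between a library and the mean of the other P0 libraries, against 0.549 to 0.860 among the injured.

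Genes that fall with age were mostly below the newborn level after injury, and genes that rise with age were mostly above it. Early-age genes (1241) were at least 2-fold higher at P3 and P7 than at P21 and P35, and late-age genes (1276) were at least 2-fold lower, both at FDR under 0.01 in libraries that enter neither injured contrast. Of all genes, 23.6% were lower and 27.5% higher in injured astrocytes than at P0. Of the early-age genes, 845 (68.1%) were lower in injured astrocytes than at P0, 36 were higher and 360 were not called, with a median log2 FC of -1.57. In uninjured P63 mice, 89.4% of the early-age genes were already lower than at P0. The same genes against P63 gave 641 (51.7%) higher, 69 lower and 531 not called, with a median of 1.07. Of the late-age genes, 1001 (78.4%) were higher than at P0, 18 were lower and 257 were not called, with a median of 2.14. Without P0 library 3, 34 were lower. In uninjured P63 mice, 84.0% of the late-age genes were already higher than at P0, so neither shift from P0 is particular to injury. Against P63 the late-age genes gave 272 (21.3%) higher, 391 (30.6%) lower and 613 not called, with a median of -0.19. Of all genes, 18.2% were higher and 15.9% lower than at P63, so the higher share was near that of all genes. With a threshold of at least 4-fold to choose them, 322 of 484 early-age genes were lower and 443 of 533 late-age genes higher than at P0.

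**Figure D2:**
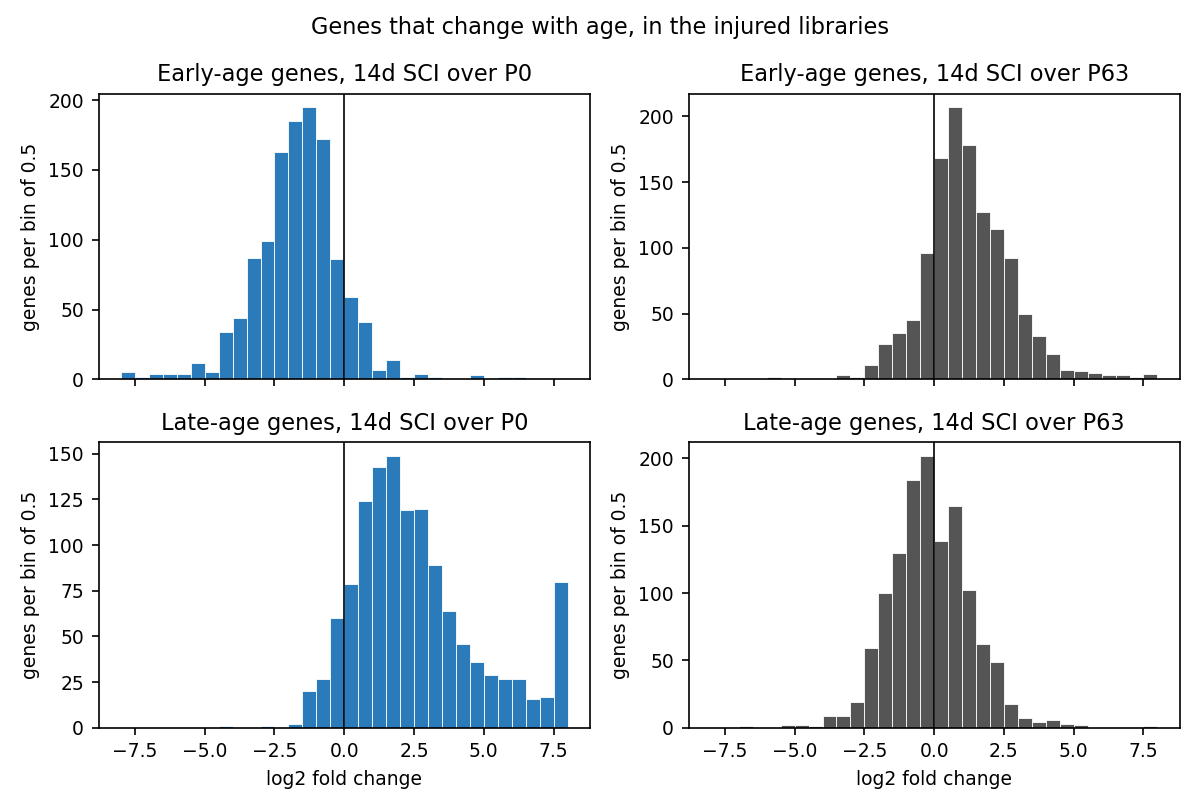
Number of early-age (top) and late-age (bottom) genes by log2 FC of injured over P0 (left) and over P63 (right), in bins of 0.5 with values beyond 8 in the outermost bins. Early-age genes centre at -1.57 against P0 and 1.07 against P63, and late-age genes at 2.14 and -0.19.

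Most genes of mitosis lay below the newborn level in injured astrocytes and above the adult level, whereas DNA replication genes lay mostly below the newborn level and 12 of 24 passed the test as above the adult. Of 25 genes of mitosis, 23 (92%) were lower than at P0, none was higher and the median log2 FC was -2.08. The 2 not called were Birc5, which encodes survivin (log2 FC -0.70), and Cenpa, the centromeric histone (log2 FC -0.55). Of the 24 replication genes, 19 (79.2%) were lower, none was higher and the median was -1.22. Of all genes, 23.6% were lower than at P0 and 27.5% higher. The injured and P0 libraries did not overlap for 23 of the mitosis genes and 17 of the replication genes, where 18.5% of all genes did not overlap in that direction.

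Mki67, whose promoter is printed above, had 49.3, 70.7, 60.7 and 67.8 CPM at P0 and 13.2, 6.50, 7.54, 13.3 and 8.16 CPM after injury. Every injured library lay below every P0 library, and all lay above the P63 mean of 1.27 CPM (log2 FC -2.67 ± 0.24 SE against P0, FDR 4.9e-11; 2.94 ± 0.24 against P63). Top2a, topoisomerase II alpha, had 94.9, 84.5, 68.6 and 84.0 CPM at P0 and 14.5, 13.5, 16.6, 21.8 and 13.3 CPM after injury, again without overlap (log2 FC -2.38 ± 0.19, FDR 2.6e-12). The injured Mki67 level fell between the uninjured means of P14 (19.9 CPM) and P21 (5.55 CPM).

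Kif11, with its motif on the strand opposite to the gene, had 43.3, 29.1, 18.3 and 33.9 CPM at P0 and 2.99 to 5.31 CPM after injury (log2 FC -2.84 ± 0.26, FDR 9.3e-11). Bub1, a spindle checkpoint kinase, was the mitosis gene with the largest fall (log2 FC -3.18), from 7.72 to 16.4 CPM at P0 to 0.504 to 1.92 CPM. Uhrf1, which maintains DNA methylation at replication, had a log2 FC of -2.25, as did Mcm10, a replication initiation factor, whose call was lost without injured library 2 or P0 library 3 (log2 FC -2.10 and -1.76). Against P63, 24 of the 25 mitosis genes were higher with a median of 2.94. Of the replication genes, 12 (50%) were higher than at P63, 11 were not called and 1, the helicase subunit gene Mcm4, was lower. Of all genes, 18.2% were higher and 15.9% lower than at P63.

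Inhibitors of cyclin-dependent kinases moved in both directions. Of 11 genes of this list, 5 (45.5%) were higher than at P0 and 2 (18.2%) lower, beside 27.5% and 23.6% of all genes. The higher count was 3 with library totals, with sex as a term and with the injured and P0 libraries fitted alone, and the last left 1 lower. Cdkn2a, which encodes p16 and ARF, gave 2 counts in all 4 P0 libraries together and 4.36, 1.41, 4.50, 5.89 and 2.39 CPM after injury, a ratio of 833 with a 95% counting interval of 230 to 6876. Cdkn2b, which encodes p15, had 0 to 1.09 CPM at P0 and 7.90 to 23.2 CPM after injury (log2 FC 4.99 ± 0.70, FDR 3.5e-07). These genes were near the floor in the newborn and were measured in every injured library.

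Cdkn1c, which encodes the imprinted inhibitor p57, ran the other way, with 439, 312, 1250 and 336 CPM at P0 and 61.4, 36.6, 49.4, 72.5 and 53.3 CPM after injury (log2 FC -3.42 ± 0.36, FDR 2.7e-09). Its injured level remained above the P63 mean of 7.90 CPM (log2 FC 2.79). Cdkn1b, which encodes p27, was lower than at P0 and P63 (log2 FC -0.73 and -0.63), though not called against P0 with the pair of groups fitted alone (FDR 0.0137). In the RNA left after the pull-down of the same 5 injured cords, Cdkn2a and Mki67 were more abundant than in the pulled-down RNA in every animal, with a log2 ratio of pulled-down to remaining RNA of -1.33 to -0.23 and -1.603 to -0.58. Top2a was more abundant in the pulled-down RNA in all 5 (log2 ratio 0.21 to 1.29). No remaining RNA of P0 was analysed here.

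Several fetal growth genes were far below the newborn level after injury. The heterochronic genes, named for control of developmental timing, gave 4 (36.4%) lower and 2 (18.2%) higher of 11 tested, with a median log2 FC of -2.94. Of all genes, 23.6% were lower and 27.5% higher. Hmga2, a chromatin protein of embryonic stem and progenitor cells, had 16.5, 13.6, 27.7 and 10.5 CPM at P0 and 0.579, 0.308, 0.297, 0.819 and 0.451 CPM after injury. The groups lay far apart, and the injured libraries were still above the P63 mean of 0.0619 CPM (log2 FC -5.12 ± 0.68 against P0, FDR 1.1e-07; 2.94 against P63).

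Igf2bp3, a fetal mRNA-binding protein, had 23.2, 18.6, 24.6 and 17.7 CPM at P0 and 0.215, 0.487, 0.594, 0.390 and 0.584 CPM after injury (log2 FC -5.53 ± 0.30, FDR 1.0e-15), and its injured level did not pass the test against P63 (log2 FC -0.52, FDR 0.103). Its relative Igf2bp1 had 1.03 to 4.13 CPM at P0 and at most 0.0257 CPM after injury (log2 FC -7.95). Lin28b, which blocks let-7 maturation, was under 1 CPM in every library of both groups and was not called (log2 FC -2.94, FDR 0.022), though it was called without P0 library 3 (log2 FC -3.38). The 2 higher genes were Hmga1, the chromatin protein related to Hmga2 (log2 FC 1.16 ± 0.12, FDR 1.8e-09), and Sall4, a stem cell zinc finger factor listed at 0 in all P0 libraries with 0.120 to 0.476 CPM after injury. Without P0 library 1 or 4 only 1 of the 11 was called higher.

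Of 18 imprinted growth genes, 15 (83.3%) were lower than at P0 and 2 (11.1%) higher, with a median log2 FC of -2.83. Of all genes, 23.6% were lower and 27.5% higher. H19, an imprinted non-coding RNA, had 549, 582, 1890 and 612 CPM at P0 and 132, 84.3, 97.8, 150 and 59.4 CPM after injury (log2 FC -3.12 ± 0.51, FDR 6.1e-06). Every injured library was below every newborn library, yet H19 was 1.85 CPM on average at P63, so the injured level was higher than in adults by a log2 FC of 5.82 ± 0.57. Igf2, the fetal growth factor next to H19, had 262, 320, 1069 and 270 CPM at P0 and 107, 84.9, 57.8, 112 and 52.0 CPM after injury (log2 FC -2.54 and 2.20 against P0 and P63).

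P0 library 3 was the highest for H19, Igf2 and Cdkn1c and also carried the highest summed level of stromal markers (9029 CPM, where the lowest P0 library had 3718). In the injured cords H19 and Igf2 were more abundant in the remaining RNA than in the pulled-down RNA in all 5 animals (log2 ratio -3.15 to -2.25 and -4.85 to -4.08), and the part of stromal RNA in these results was not tested. The largest falls among imprinted genes were Slc38a4, an amino acid transporter (log2 FC -6.25), and Magel2, a neurodevelopmental ubiquitin ligase regulator (log2 FC -5.56). The 2 higher members were Sgce, epsilon-sarcoglycan (log2 FC 0.82), and Impact, a translation regulator (log2 FC 0.66).

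Progenitor genes, a list that includes the filament genes Nes and Vim, were mostly lower than at P0. Of 21 genes, 14 (66.7%) were lower, 2 (9.52%) were higher and 5 were not called, with a median log2 FC of -1.17. Of all genes, 23.6% were lower and 27.5% higher than at P0. Against P63 the list gave 5 (23.8%) higher, 9 (42.9%) lower and 7 not called, with a median of -0.57. Of all genes, 18.2% were higher and 15.9% lower than at P63, so the higher share was near that of all genes. Nes, which encodes nestin, had 89.2, 117, 207 and 120 CPM at P0 and 111, 85.8, 100, 84.9 and 69.7 CPM after injury. The groups overlapped and the gene was not called (log2 FC -0.56 ± 0.27, FDR 0.0715), although with scaling by library totals it was called lower (log2 FC -0.86), whereas it was higher than at P63 (22.1 CPM on average; log2 FC 2.03 ± 0.27, FDR 2.9e-07).

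Vim, which encodes vimentin, had 924, 821, 1230 and 913 CPM at P0 and 2203, 1596, 2135, 2150 and 1697 CPM after injury, so that all injured libraries exceeded the newborn (log2 FC 1.01 ± 0.15, FDR 9.2e-07). Sox3, a progenitor transcription factor, was the other higher member (log2 FC 1.17). Its call was lost with the injured and P0 libraries fitted alone (FDR 0.0372) and without P0 libraries 1 and 2 (FDR 0.0193). Fabp7, brain lipid-binding protein of radial glia, had 1135, 1541, 575 and 1782 CPM at P0 and 662, 376, 472, 433 and 386 CPM after injury, with library 3 of P0 within the injured range (log2 FC -1.43 ± 0.19, FDR 1.6e-07; 0.66 against P63).

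Among the progenitor genes, Hes5 and Gli1 were below both the newborn and the adult. Hes5, a Notch target that holds progenitors undifferentiated, had 7.27, 25.2, 6.79 and 18.1 CPM at P0 and 0.887, 0.932, 0.883, 0.428 and 0.468 CPM after injury (log2 FC -4.31 ± 0.33 against P0, FDR 1.7e-12; -3.45 ± 0.31 against P63). Gli1, the transcriptional effector and target of Hedgehog signalling, had 13.8, 19.5, 11.8 and 17.6 CPM at P0 and 1.18, 2.65, 1.596, 1.04 and 1.95 CPM after injury (log2 FC -3.22 ± 0.27 and -2.97 ± 0.26). Neither gene had overlapping groups, and the P63 means were 7.89 and 13.2 CPM, so the injured libraries lay below the means of both ages. In the injured cords Gli1 was more abundant in the remaining RNA than in the pulled-down RNA in all 5 animals (log2 ratio -4.10 to -2.22), whereas at P63 it was more abundant in the pulled-down RNA in all 5 (1.89 to 2.69). For Hes5 the ratio was -0.29 to 1.49 after injury and 1.78 to 2.60 at P63. The part of this shift in the differences was not tested.

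Of 17 neurogenic transcription factors, 9 (52.9%) were lower than at P0 and 2 (11.8%) higher, beside 23.6% and 27.5% of all genes. Sox11, a factor of immature neurons and progenitors, had 41.1, 36.5, 27.8 and 22.2 CPM at P0 and 12.1, 9.40, 12.4, 10.2 and 9.79 CPM after injury (log2 FC -1.56 ± 0.16, FDR 5.0e-10), with a small difference in the other direction against P63 (log2 FC 0.78). Mycn, the Myc family member of neural progenitors, fell from 16.2 to 32.1 CPM at P0 to 1.66 to 3.46 CPM (log2 FC -3.26). The higher calls were Eya1, at 0 in 3 of the 4 P0 libraries, and Mycl (log2 FC 0.79), and with the injured and P0 libraries fitted alone neither was called. The call of Eya1 was also lost without P0 library 1, 3 or 4 (log2 FC 3.06 to 3.08), and that of Mycl without injured library 3, 4 or 5 or P0 library 2, 3 or 4 (log2 FC 0.51 to 0.81).

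**Figure D3:**
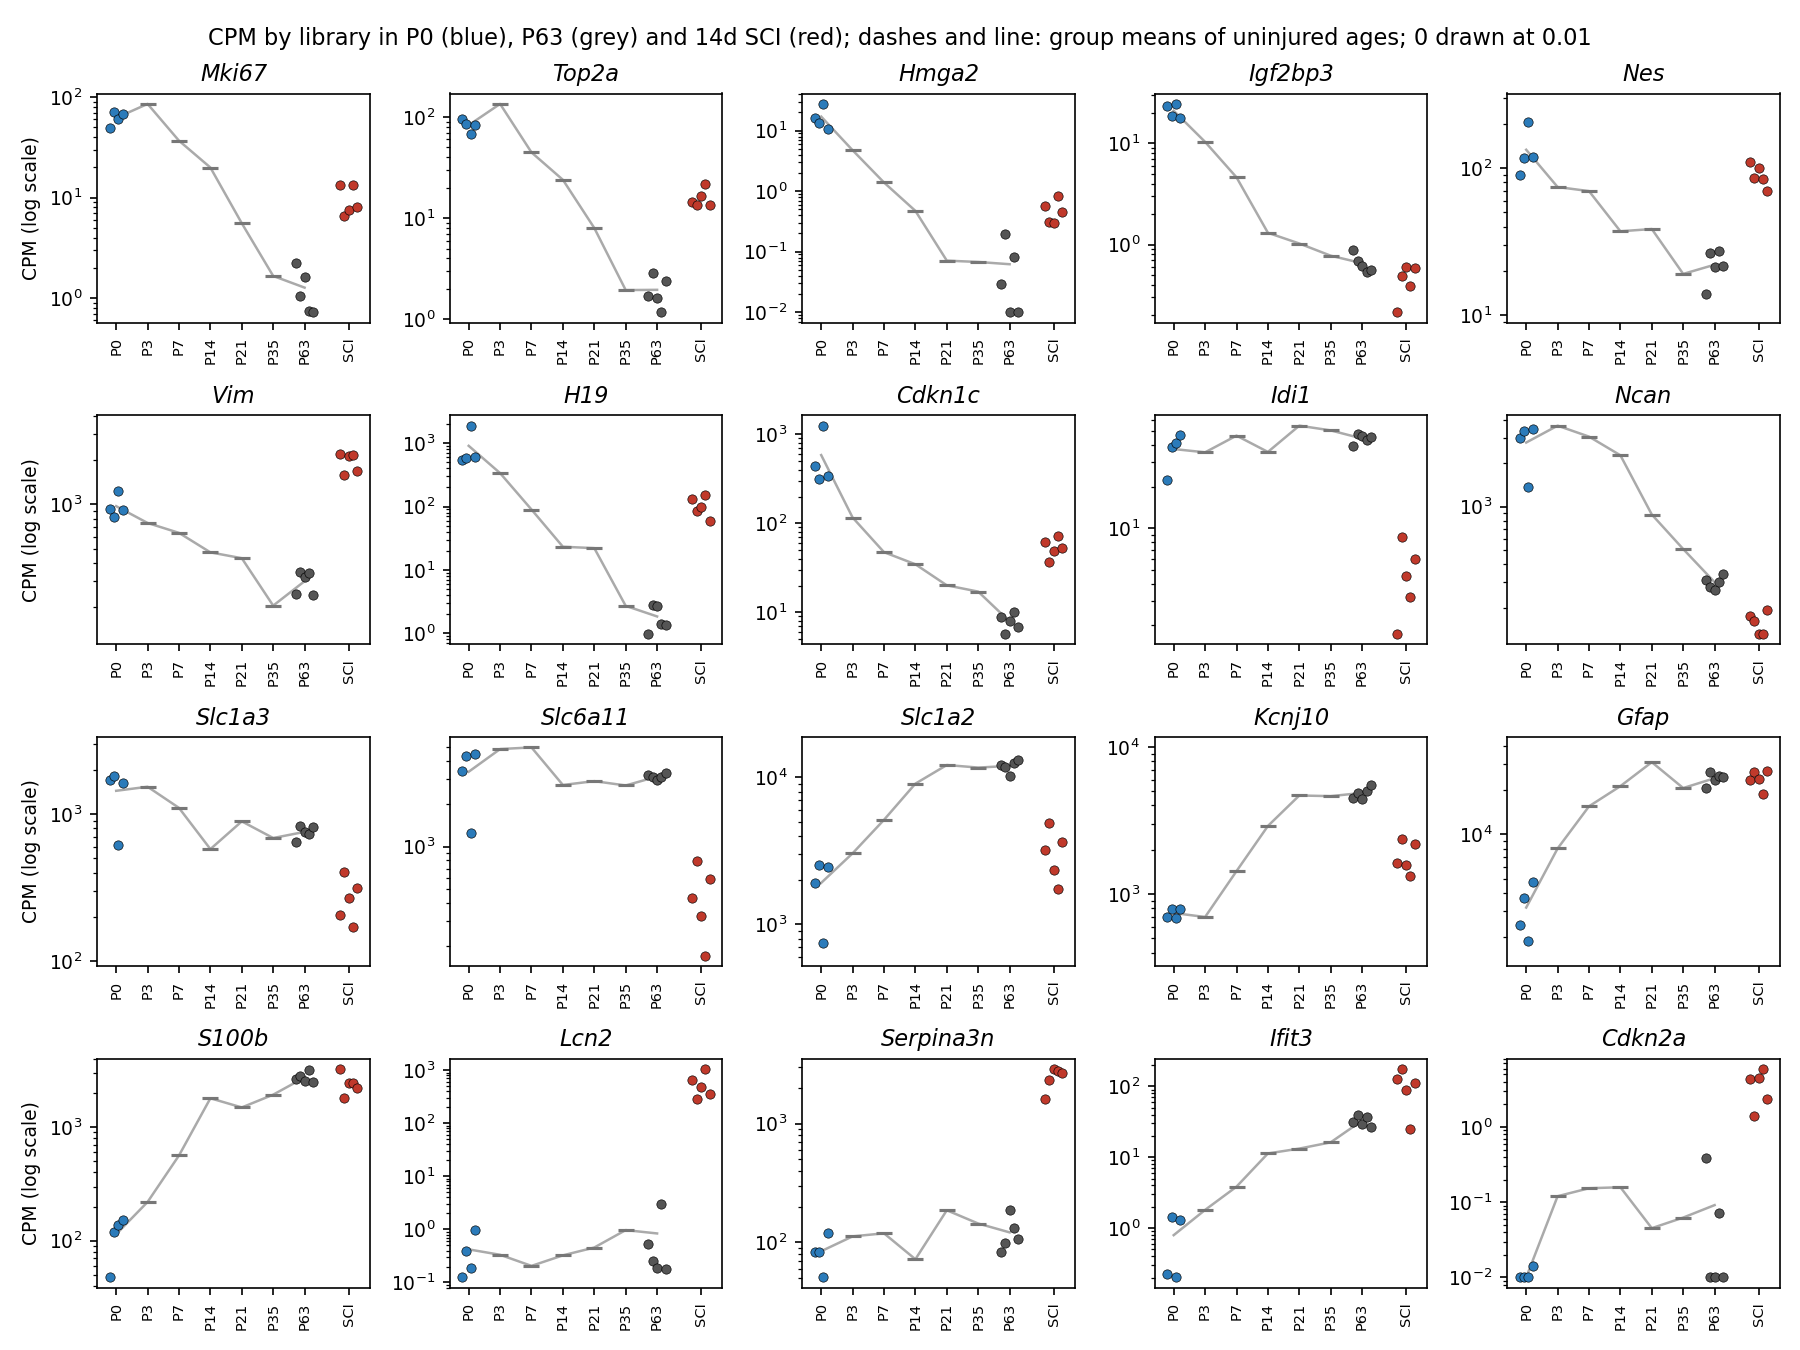
CPM of 20 genes on log scales in each P0 (blue), P63 (grey) and injured (red) library, with dashes and a line for the means of the uninjured ages and values of 0 drawn at 0.01. Mki67 and Top2a sit between the newborn and adult levels, Nes overlaps P0, Gfap and S100b overlap P63, and Lcn2, Serpina3n and Cdkn2a exceed every P0 library.

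Genes of the mature astrocyte ranged from adult levels, as for the filament gene Gfap, to below newborn levels, as for the transporters Slc1a3 and Slc6a11. Gfap, the intermediate filament of astrocytes and the source of the Cre promoter, had 2403, 3715, 1886 and 4705 CPM at P0 and 23437, 26607, 23711, 18854 and 27097 CPM after injury (log2 FC 2.91 ± 0.21, FDR 5.0e-13). The groups were far apart, and the injured mean of 23941 CPM lay close to the P63 mean (log2 FC -0.0060, FDR 0.984). S100b, a calcium-binding protein that rises with astrocyte maturation, had 47.6, 120, 137 and 152 CPM at P0 and 3240, 1800, 2440, 2443 and 2223 CPM after injury (log2 FC 4.41 against P0 and -0.17, FDR 0.511, against P63). Padi2, which converts arginine to citrulline in proteins, had 18.3 to 84.6 CPM at P0 and 843 to 1608 CPM after injury (log2 FC 4.61 against P0 and -0.42, FDR 0.149, against P63).

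Of 22 transport and junction genes, 6 (27.3%) were higher, 5 (22.7%) lower and 11 not called against P0, with a median log2 FC of -0.05, which is near the 27.5% and 23.6% of all genes. The same list gave 1 higher and 19 (86.4%) lower against P63, with a median of -1.55, beside 18.2% and 15.9% of all genes. With scaling by library totals 8 members were lower than at P0, as with P0 library 3 left out, and 3 with the injured and P0 libraries fitted alone. Slc1a2, the main glutamate transporter of adult astrocytes, had 1917, 2531, 747 and 2475 CPM at P0 and 3210, 4913, 2352, 1745 and 3651 CPM after injury. The groups overlapped and the difference did not pass the FDR threshold of 0.01 (log2 FC 0.73 ± 0.26, FDR 0.0157), although it was called with injured library 4 left out (log2 FC 0.88) or library 3 left out (log2 FC 0.82), whereas the injured level was lower than at P63 by a log2 FC of -1.91 ± 0.25.

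Slc1a3, the glutamate transporter that dominates early life, had 1693, 1824, 620 and 1623 CPM at P0 and 206, 401, 270, 170 and 316 CPM after injury (log2 FC -2.40 ± 0.25, FDR 8.8e-10). All injured libraries were below the lowest P0 library, and below P63 as well (log2 FC -1.48). Slc6a11, the GABA transporter GAT3, had 3406, 4338, 1242 and 4479 CPM at P0 and 434, 792, 327, 171 and 589 CPM after injury (log2 FC -2.86 against P0 and -2.75 against P63).

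Kcnj10, the inward rectifier potassium channel Kir4.1, had an intermediate level, with 688 to 796 CPM at P0, 1326 to 2353 CPM after injury and 4867 CPM on average at P63 (log2 FC 1.29 and -1.42). Aqp4, the water channel of the endfoot, was not called against P0 (log2 FC 0.35, FDR 0.244) and its libraries overlapped. Slc16a1, the lactate transporter MCT1, was the transport gene higher than at both ages (log2 FC 1.94 and 0.82). Gjb6, which encodes connexin 30, was higher than at P0 by 2.69 and lower than at P63 (log2 FC -2.13).

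Of 22 enzyme and receptor genes of astrocytes, 9 (40.9%) were higher than at P0 and 5 (22.7%) lower, or 5 and 3 with the injured and P0 libraries fitted alone, and against P63 none was higher and 18 were lower. Of all genes, 27.5% were higher and 23.6% lower than at P0, and 18.2% were higher and 15.9% lower than at P63. Grm3 and Grm5, which encode metabotropic glutamate receptors, were among the lower (log2 FC -3.59 and -2.79). Aldh1l1, the folate enzyme used as a general astrocyte marker, was lower than at P0 (log2 FC -0.95 ± 0.19). Its call was lost with the injured and P0 libraries fitted alone (FDR 0.0139). P0 library 3 lay apart for this gene, with 186 CPM where the next P0 library had 421.5 CPM. Of 22 astrocyte transcription factors, 11 (50.0%) were higher and 4 (18.2%) lower than at P0, or 6 higher with scaling by library totals and 6 higher and 2 lower with the injured and P0 libraries fitted alone. Sox9, an astrocyte lineage factor, was not called (log2 FC 0.66, FDR 0.0282), Id3, an inhibitor of differentiation factors, was higher (log2 FC 1.19), Atf3, a stress-induced factor, was higher (log2 FC 2.84) and Nfib, a gliogenic factor, was lower (log2 FC -1.11). Atf3 was more abundant in the remaining than in the pulled-down RNA in all 5 injured cords (log2 ratio -2.119 to -1.275). At P63 its ratio was 1.93 to 3.10, and the part of other cells was not tested. Of the consensus astrocyte-enriched genes, a list that the study took from published datasets and then checked for enrichment in its own uninjured astrocytes, 45.2% were higher than at P0, 107 genes (24.9%) were lower and 128 not called, against 35 higher, 260 lower and 134 not called relative to P63. The share lower than at P0 was near the 23.6% of all genes.

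Reactivity genes were higher after injury than in the newborn and in the adult reference. Of 40 reactivity genes, 32 (80%) were higher than at P0 and 2 (5%) lower, with a median log2 FC of 3.38. Against P63, 35 (87.5%) were higher with a median of 2.36. Of all genes, 27.5% were higher and 23.6% lower than at P0, and 18.2% were higher than at P63. Lcn2, a secreted siderophore-binding protein, had 0.125, 0.386, 0.190 and 0.981 CPM at P0 and 659, 283, 485, 1045 and 348 CPM after injury (log2 FC 10.33 ± 0.98, FDR 8.1e-10; 9.34 against P63). Serpina3n, a secreted serine protease inhibitor with near-identical neighbours whose reads the counting may have shared, had 82.9, 83.3, 50.7 and 120 CPM at P0 and 1613, 2313, 2867, 2784 and 2684 CPM after injury (log2 FC 4.86 ± 0.26). Neither gene had overlapping groups.

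C3, the central complement component, differed mainly from the newborn, with 0.895 to 6.76 CPM at P0, 1080 to 2142 CPM after injury and 705 CPM on average at P63 (log2 FC 8.92 and 1.17). Tgm1, a transglutaminase, and Steap4, a metalloreductase, were higher than at both ages by similar amounts (log2 FC 7.40 and 7.79 for Tgm1, 5.79 and 6.14 for Steap4). The 2 lower members were Fbln5, an elastic fibre protein (log2 FC -1.28), and B3gnt5, a glycolipid glycosyltransferase (log2 FC -1.75), and both were higher than at P63 (log2 FC 1.51 and 1.99).

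All 24 interferon-stimulated genes tested were higher than at P0, with a median log2 FC of 3.74, and 21 (87.5%) were higher than at P63. Of all genes, 27.5% were higher than at P0 and 18.2% higher than at P63. The injured libraries lay wholly above the P0 libraries for 21 of the 24, where 25.2% of all genes did so. Ifit3, whose printed promoter holds 2 matches to the interferon motif, had 0.226, 1.45, 0.201 and 1.30 CPM at P0 and 126, 175, 90.1, 24.8 and 112 CPM after injury (log2 FC 7.04 ± 0.62, FDR 1.2e-10; 1.68 against P63). Library 4 was the lowest injured library for Ifit3 and still exceeded each newborn library. Mx1, an antiviral GTPase, gave 4 counts over the P0 libraries and 0.476 to 6.10 CPM after injury, a ratio of 331 with a 95% counting interval of 129 to 1214. Of 16 antigen presentation genes, 14 (87.5%) were higher than at P0 and none lower, with the immunoproteasome subunit genes Psmb9 (log2 FC 4.43) and Psmb8 (log2 FC 4.24) leading. In all 5 injured cords Psmb8 and Psmb9 were more abundant in the remaining RNA than in the pulled-down RNA (log2 ratio -2.31 to -1.21 and -2.14 to -0.90). The animal medians over the 16 genes were -2.19 to -1.12 on the log2 scale, against -0.28 to -0.16 at P63, and the part of other cells in the result was not tested. Family members of the interferon and histocompatibility lists are similar in sequence, and reads may have been shared among them.

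Cholesterol synthesis was low against both references. Of 22 genes of the pathway, 19 (86.4%) were lower than at P0 and 1 higher, with a median log2 FC of -1.79. Against P63, 20 (90.9%) were lower with a median of -1.65. Of all genes, 23.6% were lower and 27.5% higher than at P0, and 15.9% were lower than at P63. Idi1, an isomerase early in the pathway, had 22.1, 38.3, 41.4 and 47.1 CPM at P0 and 1.74, 8.69, 4.55, 3.18 and 5.99 CPM after injury. The groups did not overlap, and Idi1 was lower than at P0 (log2 FC -2.95 ± 0.27, FDR 1.36e-10) and than at P63 (-3.20 ± 0.27, FDR 7.18e-11). The higher gene was Ebp, a sterol isomerase (log2 FC 0.75).

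Matrix genes also moved in both directions. Of 19 genes for chondroitin sulfate proteoglycans, tenascins and their partners, 6 (31.6%) were higher and 8 (42.1%) lower than at P0, beside 27.5% and 23.6% of all genes, and 3 were higher with the injured and P0 libraries fitted alone. Ncan, which encodes neurocan of the juvenile matrix, had 2967, 3326, 1371 and 3450 CPM at P0 and 175, 162, 132, 132 and 193.9 CPM after injury (log2 FC -4.13 ± 0.21, FDR 2.0e-16; -0.92 against P63). Tnc, which encodes tenascin C, fell below P0 (log2 FC -2.73) and was above P63 (log2 FC 0.94), with 214 to 648 CPM at P0 and 58.0 to 77.6 CPM after injury. Acan, which encodes aggrecan of perineuronal nets, was higher than at P0 (log2 FC 2.65), a call lost in that fit (FDR 0.0432). Hapln2, a link protein of the node of Ranvier, had 0.0895 to 0.152 CPM at P0 and 73.2 to 121 CPM after injury (log2 FC 9.76). The study names it among markers of the oligodendrocyte progenitor lineage. Its log2 ratio of pulled-down to remaining RNA was 0.08 to 1.67 after injury and -2.98 to -1.94 at P63. The part of tagged cells of that lineage was not tested.

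Of 18 synapse modulators, 10 (55.6%) were lower than at P0 and 3 (16.7%) higher, beside 23.6% and 27.5% of all genes. Mertk, an engulfment receptor, was lower than at both ages (log2 FC -1.79 and -2.84), as was Lrp4, an agrin receptor (log2 FC -2.44 and -1.31). The log2 ratio of pulled-down to remaining RNA for Mertk was -1.66 to -0.81 after injury and 2.79 to 3.155 at P63. Tnfrsf11b, a decoy receptor, was higher than at P0 (log2 FC 3.03), and so was Gpc5, a glypican (log2 FC 1.28), a call lost without injured library 2 or P0 library 1 or 3 (log2 FC 0.97 to 1.06). Both genes lost their call with the injured and P0 libraries fitted alone (FDR 0.0264 and 0.0627), and Gpc5 also with library totals (FDR 0.0146).

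**Figure D4:**
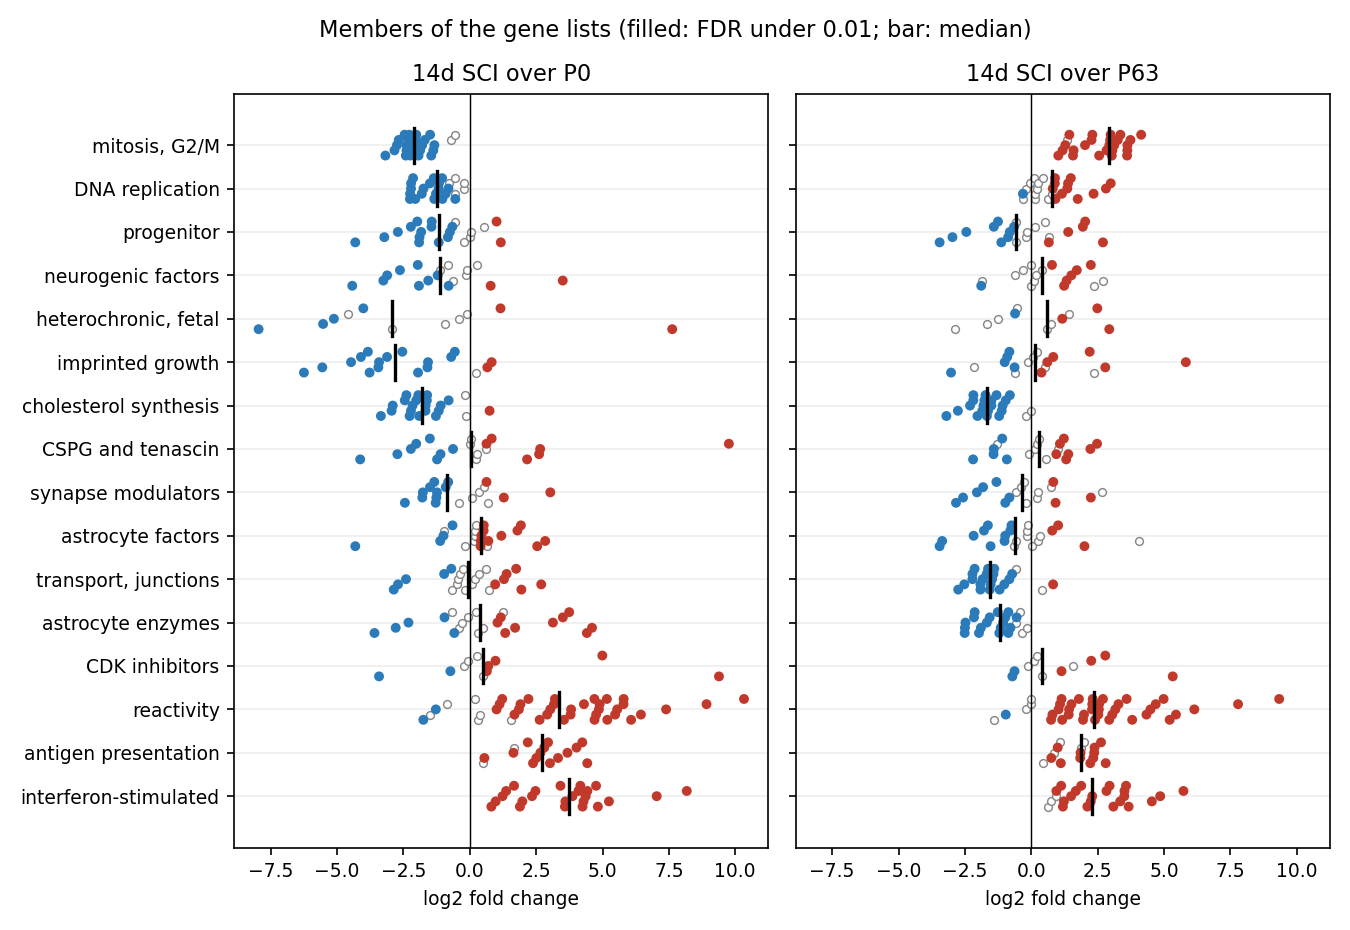
Log2 FC of each tested member of 16 gene lists for injured over P0 (left) and over P63 (right), with filled points for FDR under 0.01, open points for genes not called and a bar at the list median. Mitosis genes lie left of 0 against P0 (median -2.08) and right of it against P63 (median 2.94), whereas interferon-stimulated genes lie right of 0 against P0 (median 3.74) and P63 (median 2.27).

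The genes furthest above P0 included several secreted proteins. The 10 with the largest log2 FC, no overlap and at least 10 CPM after injury included Ccn5, a secreted matricellular protein, with 0.0624 to 0.0711 CPM at P0 and 193.1, 166, 263, 180 and 230 CPM after injury (log2 FC 11.54 ± 0.71, FDR 7.7e-14; 7.70 against P63). Klk6, a secreted serine protease, had 0.497 to 0.593 CPM at P0 and 403.3 to 648 CPM after injury (log2 FC 10.02; 4.66 against P63). Every injured library of both genes was above every P0 and P63 library. The log2 ratio of pulled-down to remaining RNA was 0.34 to 1.72 after injury and -3.62 to -2.81 at P63 for Klk6. For Ccn5 it was 2.07 to 2.71 and -3.22 to -0.73. Oligodendrocyte markers shifted in the same direction, as given below, and the part of tagged cells of that lineage was not tested.

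Secreted phospholipase Pla2g5 gave 6 counts over the P0 libraries and 15.1 to 20.3 CPM after injury, a ratio of 1275 with a counting interval of 586 to 3475. The ventral homeodomain factor gene Nkx2-9 gave 6 counts and a ratio of 1144 (526 to 3117), Serpinf2, which encodes the plasmin inhibitor, gave 10 counts and a ratio of 819 (445 to 1707), and the serine protease gene Prss30 gave 2 counts and a ratio of 2856 (791 to 23587). Serpina3m was called (2 counts at P0) but was high only in injured libraries 1 and 2 (18.1 and 41.7 CPM) and under 1 CPM in the other 3. The remaining genes were Lcn2, Hapln2 and the oligodendrocyte gene Opalin (log2 FC 10.31).

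Of the 10 genes furthest below P0 among those with no overlap and at least 10 CPM at P0, 4 were on the Y chromosome (Kdm5d, Ddx3y, Eif2s3y and Uty), as the injured mice were labelled female and the newborn male. Kdm5d was at 0 in all injured libraries and at least 616-fold lower against a floor of 3 counts per library, and lost its call without any 1 of them (FDR 0.0117 to 0.012). Eif2s3y and Uty gave 2 counts each over the injured libraries, both in library 5, with P0-to-injured ratios of 5339 (95% counting interval 1478 to 44088) and 2913 (806.5 to 24057), and lost their calls without that library (FDR 0.013 and 0.0118). Pla2g3, a secreted phospholipase of another group, had 493, 200, 167 and 291 CPM at P0 and 2.16 to 3.02 CPM after injury (log2 FC -6.79 ± 0.30, FDR 1.7e-17). Gsg1l, an auxiliary subunit of AMPA receptors, had 97.8, 117, 34.2 and 134 CPM at P0 and 0.535 to 1.81 CPM after injury (log2 FC -6.68), below P63 as well (log2 FC -2.61). Alox12, a lipoxygenase, fell to at most 0.470 CPM (log2 FC -6.94). The other 3 were Prss56, a serine protease with 12 counts over the injured libraries and 27.5 to 92.3 CPM at P0 (a ratio of 2052 with a counting interval of 1175 to 3972), Zpld1, a zona pellucida-domain protein, and Frem3, a basement membrane protein.

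Some early-age genes were far above the adult level, and the leading ones differed in how they stood against P0. Among at least 4-fold early-age genes the largest differences from P63 were those of Postn (periostin, a matrix protein), Ngfr (the p75 neurotrophin receptor), H19, Crym (a thyroid hormone-binding protein), Col6a1 (a collagen) and Fst (follistatin, which binds activin). Ngfr had 21.8, 36.7, 107 and 53.4 CPM at P0 and 41.5, 87.1, 51.7, 86.1 and 42.7 CPM after injury, and Col6a1 had 31.9 to 71.7 and 9.83 to 55.0 CPM. For both genes the groups overlapped and the difference from P0 was not called (log2 FC 0.17, FDR 0.847 and -0.19, FDR 0.776), against log2 FC of 6.01 and 5.44 over P63.

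Postn and Fst were below P0 (log2 FC -1.67 and -2.37) and above P63 (6.08 and 5.24), whereas Crym was above both (2.91 and 5.59). In the injured cords Crym, Ngfr and Fst were more abundant in the pulled-down RNA than in the remaining RNA in all 5 animals (medians 3.04, 2.12 and 2.61 on the log2 scale), and Col6a1 was less abundant in all 5 (median -1.64). The injured libraries with high Ngfr were libraries 2 and 4, while summed Schwann cell markers, a list that includes Ngfr, were highest in libraries 4 (5189 CPM) and 1 (4155 CPM).

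Among at least 4-fold late-age genes, those furthest below P63 were Aqp6, an intracellular aquaporin, Slco4a1, an organic anion transporter, Kirrel2, an adhesion protein, Acvr1c, an activin receptor, Hsd11b1, which regenerates glucocorticoid, and Cables1, a CDK5 partner. Cables1 had 14.6, 9.24, 8.35 and 11.9 CPM at P0 and 12.4, 12.6, 9.11, 7.97 and 12.6 CPM after injury, against 137 CPM on average at P63 (log2 FC -0.01, FDR 0.958 and -3.65, FDR 2.1e-16). Kirrel2 and Slco4a1 were also not called against P0 (log2 FC -0.10 and -0.22) and were under 2 CPM in both groups. These members overlapped the newborn range, whereas Hsd11b1 was higher than at P0 (log2 FC 2.85). Except for Kirrel2, the log2 ratio of pulled-down to remaining RNA of these late-age genes was lower in every injured cord than in any P63 cord. It was -1.786 to 0 against 2.305 to 3.001 for Aqp6, -4.05 to -2.242 against 0.17 to 0.78 for Slco4a1 and -0.32 to 0.28 against 2.83 to 3.09 for Cables1. The part of this shift in the differences was not tested.

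The composition of the pulled-down RNA differed between the groups, and these values stand beside every result above. Marker counts here and below are read beside the 27.5% of all genes higher and 23.6% lower than at P0. Summed over 12 astrocyte markers the injured libraries had 25982 to 43862 CPM and the P0 libraries 6697 to 18446 CPM, with 3 markers higher, 3 lower and 6 not called. Gfap, whose levels are given above, supplied most of each injured sum and a smaller part of each P0 sum. The astrocyte sums therefore mainly reflect Gfap and do not show that the other markers were higher. All 10 oligodendrocyte markers were higher after injury (27835 to 41531 CPM against 3906 to 9010, and 10423 to 14633 at P63), as were 7 of 8 oligodendrocyte progenitor markers (1785 to 2636 CPM against 709 to 774) and 6 of 10 ependymal markers (270 to 431 CPM against 19.98 to 79.7). In the injured cords the oligodendrocyte markers were more abundant in the pulled-down than in the remaining RNA, with animal medians of 0.99 to 2.07 on the log2 scale, and at P63 less abundant (-1.35 to -0.73).

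Macrophage markers were higher for 7 of 10 and lower for 1 (293 to 2263 CPM against 24.3 to 33.6), and microglial markers higher for 6 and lower for 2 of 10 (270 to 1054 CPM against 168 to 260). Both sums were highest in injured library 4, and in the injured cords these markers were less abundant in the pulled-down RNA (animal medians -4.06 to -2.65 and -4.62 to -2.60 on the log2 scale). Neutrophil markers gave 1 higher of 9 tested, lymphocyte markers none of 8 and erythroid markers 1 lower of 6, with Hbb-y at 0 in every injured and P0 library.

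The newborn libraries held more of the other side. All 8 endothelial markers were lower after injury (15.3 to 24.2 CPM against 53.1 to 159), with 6 of 8 stromal (662 to 1359 against 3718 to 9029), 5 of 10 Schwann cell (2281 to 5189 against 6666 to 20046) and 10 of 12 neuronal markers (60.1 to 369 against 509 to 692). P0 library 3 had the highest endothelial, stromal and Schwann cell sums and the lowest astrocyte sum. The part of these cell types in the differences was not tested. Leaving out injured library 4 and P0 library 3 together gave 4768 genes higher and 4310 lower than at P0.

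**Figure D5:**
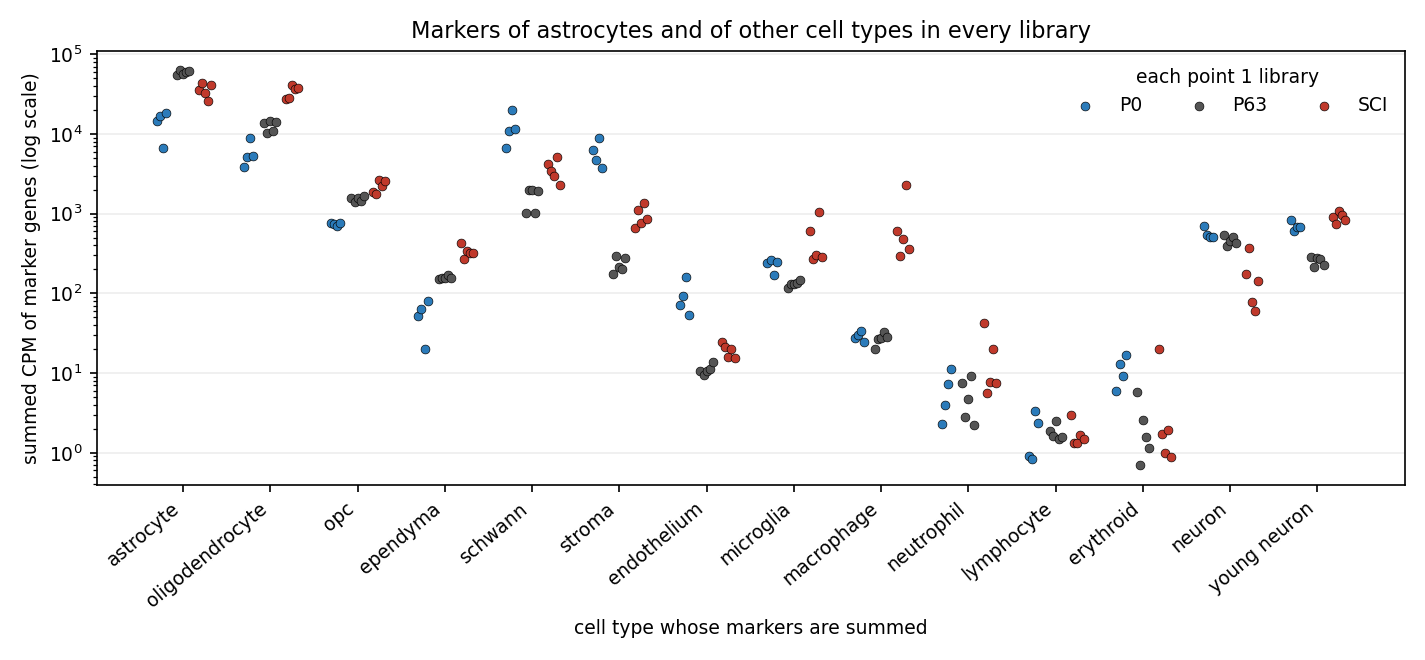
Summed CPM (log scale) of the marker genes of each cell type in every P0 (blue), P63 (grey) and injured (red) library, 1 point per library. Astrocyte and oligodendrocyte sums of the injured libraries lie above those of P0, and endothelial, stromal, Schwann cell and neuronal sums lie below. Gfap supplies most of each injured astrocyte sum.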

How the data were processed

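RNA-seq was made from poly-A RNA of tagged ribosomes (and, for injured and P63 cords, of the RNA left after the pull-down, called flow-through in the labels) and sequenced as paired reads. The deposited values are raw read counts per gene, 1 file per library, that the authors made with Trimmomatic, HISAT2 and featureCounts on mm10, with default parameters. The strand setting is not given in the sources used here, so reads of overlapping or antisense genes cannot be told apart. Each file lists 27179 gene IDs, of which 25275 had a symbol in the RefSeq table of GRCm38.p6.

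All 33 mGfap RiboTag libraries were fitted together with edgeR 4.0.16 (R 4.3.3), with filterByExpr, TMM and robust quasi-likelihood fits, and the contrasts were adjusted over 18380 genes. Ratios of pulled-down to remaining RNA were taken within animals. Counting intervals are exact and cover counting error only, at 95%. In counts simulated for the injured and P0 comparison on 18380 genes, 80% of 50 genes raised 4-fold and 86% of 50 genes lowered 4-fold were called, with 62% and 56% at 2-fold, and 5 of 18180 unchanged genes. Few genes were changed there, all above a CPM floor, with a spread estimated over all ages. In the data 51.1% of genes were called and P0 libraries varied more, so these rates need not carry over. The members and the gene lists were chosen with earlier results of these data known. Genes are named by a rule: the 10 largest differences in each direction, up to 2 called members of each list in each direction, a set of defining genes, the 6 age genes in each direction furthest from P63, and the 6 above and 6 below both ages. Not every gene that the rule names is reported here. Others were chosen after their values were seen: Birc5, Cenpa, Mcm4, Mcm5, Sall4, Hbb-y, Hoxd10 and Hoxc11. The alternatives were other scalings and filters, DESeq2, other samples and other age cuts. P-values measure the spread between libraries, estimated over all 33 libraries together, so the wider spread of P0 is not fully reflected in them. No column went unused.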

Additional observations from a re-analysis of the deposited data

Results flagged for a closer look

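In 33 of 268 groups of 4 or 5 values (named genes, marker sums and axis positions in the injured and P0 libraries), 1 library lay apart from the rest by Dixon's test. Chance alone does so for about 1 group in 20 only where values are normal and independent. CPM are skewed, the same libraries recur, and a gene with counts in only 1 library is always flagged. The share flagged can therefore not be set against that rate. P0 library 3 accounted for 9 of the 33 groups. It was the highest P0 library for H19 (1890 CPM), Igf2 (1069), Cdkn1c (1250), Prss56 (92.3), Alox12 (81.7), Slc38a4 (6.21) and Prss30 (0.0224), and the lowest for Aldh1l1 (186) and Slc1a3 (620). The same library had the highest stromal and Schwann cell marker sums and the lowest astrocyte sum, and the part of these in its values was not tested.

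Other P0 libraries stood apart for genes with varied roles. P0 library 1 was the highest for Hif3a (96.1 CPM), Mertk (72.3), Psmb9 (1.404) and Mx1 (0.0312). P0 library 2 was the highest for Eya1 (0.791), Slco4a1 (0.700) and Nkx2-9 (0.0609), and P0 library 4 for Cdkn2a and Serpina3m (0.0142 CPM each), where the other P0 libraries were at or near 0.

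Injured library 4 was the highest for summed macrophage markers (2263 CPM), Steap4 (138), Fst (13.4) and Zpld1 (0.0952) and the lowest for Hif3a (0.886). Injured library 1 was the highest for Crym (44.5 CPM), Sox3 (38.9) and the summed erythroid (20.1) and lymphocyte (2.97) markers. Injured library 2 was the highest for Hoxc11 (0.00855), library 3 for Hmga1 (39.1) and Nhlh2 (0.119), and library 5 for Slco4a1 (0.351) and for Eif2s3y and Uty (0.0167 CPM each).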

How the results depend on the processing

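Of 53 counts and positions, each recomputed under the alternatives that bear on it, 25 stayed within 1.5-fold under those, and 110 of 141 named gene results kept their direction and call. The axis position was judged instead by whether it shifted by less than the SD of the injured libraries (4.56). No direction reversed. With the injured and P0 libraries fitted alone, fewer libraries estimated the spread and the filter kept fewer genes: 3129 genes were higher than at P0, and among list members 3 CDK inhibitors were higher and 1 lower, 1 progenitor gene was higher, 3 transport genes lower, 5 enzyme genes higher and 3 lower, 1 synapse modulator higher, 6 astrocyte factors higher and 2 lower, 0 neurogenic factors higher, 1 reactivity gene lower, 9 antigen presentation genes higher, 3 matrix genes higher, 2 Hox genes higher and 4 lower, 69 consensus astrocyte genes lower, 16 early-age genes higher and 6 late-age genes lower. With library totals, 3 CDK inhibitors, 1 imprinted gene, 6 astrocyte factors, 1 neurogenic factor and 3 Hox genes were higher, 8 transport and 8 enzyme genes lower and, with the age genes chosen anew, 1335 early-age genes (72.9%) lower than P0, 975 (53.2%) higher than P63 and 215 late-age genes lower than P63. With sex as a term, 3 CDK inhibitors, 1 heterochronic gene, 0 neurogenic factors and 3 Hox genes were higher and 5 Hox genes lower. RLE and upper-quartile scaling, no filter and a stricter filter each left 1 neurogenic factor higher. An FDR of 0.05 gave 37 late-age genes lower than P0, and choosing age genes on P3 against P35 gave 28. With at least 4-fold to choose age genes, 282 early-age genes were higher and 8 lower than P63, 10 higher and 322 lower than P0, and 104 late-age genes were higher and 125 lower than P63, 443 higher and 1 lower than P0. The axis position was 70.2 with the 2000 most variable genes, 54.2 without P3 and 83.0 without P35. Of alternatives chosen after seeing the data, leaving out injured library 4 and P0 library 3 gave 1 heterochronic and 0 neurogenic genes higher, 8 transport genes lower and 28 late-age genes lower. Leaving out P0 libraries 1 and 2 gave 1 heterochronic gene higher and 5 Hox genes lower, and the P63 females alone gave 176 late-age genes higher than P63. The causes were not tested.

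Leaving out each library in turn moved the heterochronic genes higher between 1 and 2, the transport genes lower between 5 and 8, the neurogenic factors higher between 0 and 2 and the late-age genes lower than P0 between 13 and 34. The total stayed between 4641 and 5005 genes higher and 4074 and 4561 lower. The labels give injured and P0 samples the same replicate numbers, but same-numbered samples did not deviate together (r -0.05, -0.01, -0.04 and -0.09), so they share only a number. With the replicate number as a block, 4955 genes were higher and 4216 lower, and of the named genes Hoxa11, Hoxd11 and Xist lost their call. Depth limits what can be said of genes at 0 in a group.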

Other observations

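Hox genes, which mark position along the cord, differed between the newborn libraries themselves. Of 28 tested, 5 (17.9%) were higher and 9 (32.1%) lower after injury, beside 27.5% and 23.6% of all genes. The counts were 2 and 4 with the injured and P0 libraries fitted alone and 3 and 5 with sex as a term. Hoxa11 and Hoxd11, posterior genes, were at 0 in all injured libraries, with 3.35, 1.65, 0.0224 and 0 CPM and 2.54, 3.80, 0.593 and 0 CPM at P0, and were at least 47.3-fold and 65.3-fold lower against a floor of 3 counts per library. These bounds rest on P0 libraries 1 and 2, and were 21.04-fold for Hoxa11 without P0 library 1 and 39.4-fold for Hoxd11 without P0 library 2. The call of Hoxa11 was lost without any 1 injured library (FDR 0.0138 to 0.0153), without P0 library 1 (0.0163), without P0 libraries 1 and 2 (0.35), with DESeq2 (0.0885) and with sex as a term (0.0175). That of Hoxd11 was lost without P0 libraries 1 and 2 (FDR 0.0287), with DESeq2 (0.107) and with sex as a term (FDR 1). Hoxd10 had 9.96 and 11.9 CPM in P0 libraries 1 and 2 and at most 0.597 CPM in the other P0 libraries, and Hoxc11 had 3.68 and 3.50 CPM in the same libraries and 0 in the rest. All 4 libraries carry the same group label. The anterior genes Hoxa4 and Hoxd4 were higher after injury (log2 FC 2.08 and 1.397).

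Of 10 markers of young neurons, 3 (30%) were higher and 5 (50%) lower than at P0, beside 27.5% and 23.6% of all genes. Igfbpl1, a gene of newborn neurons, had 8.88, 4.24, 0 and 4.64 CPM at P0 and 42.8, 28.0, 130, 73.0 and 58.3 CPM after injury (log2 FC 3.90; 7.06 against P63), and Elavl3, a neuronal RNA-binding protein, had a log2 FC of 2.32. The study also names Igfbpl1 among genes that reactive astrocytes raise late after injury. Its log2 ratio of pulled-down to remaining RNA was 3.318 to 4.355 in the injured cords. Nhlh1 and Nhlh2, factors of migrating neurons, were lower (log2 FC -4.77 and -5.22), though the call of Nhlh1 was lost in most fits that left out 1 library (log2 FC -5.09 to -4.31). Genes below both ages included Hif3a, a hypoxia factor (log2 FC -4.33 and -3.72), and Mc5r, a melanocortin receptor (log2 FC -3.03 and -3.78). Klk8, a serine protease, was above both (log2 FC 6.43 and 6.87). For Hif3a the log2 ratio of pulled-down to remaining RNA was -1.79 to -0.0094 after injury and 0.70 to 1.28 at P63. For Mc5r it was -0.59 to 2.34 and 4.34 to 6.65, and for Klk8 0.03 to 1.65 and -3.09 to -1.65. The part of these shifts in the differences was not tested.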
